A study of Mus musculus with 12 samples.

Results

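Fas, Fasl, Tnfsf10, Tnfrsf10b, Casp8, Bid, Gsdmd and Gsdme, a set of ligands, death receptors, an initiator caspase, its mitochondrial link and pore-forming gasdermins, were followed across melanoma cells and T cells taken from mouse tumors. They were chosen by gene symbol, as 8 of the 77175 genes in the deposited count table. The study sequenced messenger RNA from 12 libraries in 4 groups of 3. All hosts were NOD-SCID mice, which lack T and B cells of their own but keep macrophages, neutrophils and natural killer (NK) cells of reduced activity. All carried a B16-F10 melanoma, received OT-1 CD8+ T cells (genotype C57BL/6J-OT-I) that had been activated with anti-CD3/anti-CD28 beads, and were killed 2 days later. OT-1 cells bear a transgenic receptor for an ovalbumin peptide.

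The OVA T cell group holds T cells drawn by CD8 beads from tumors of the line B16-F10-OVA, and the B16-F10 T cell group holds those drawn in the same way from tumors of the line B16-F10. The OVA tumor cell group and the B16-F10 tumor cell group are the melanoma cells of the same kinds of tumor, sorted by fluorescence for GCaMP6s, a calcium sensor driven by the EF1A promoter in both lines. B16-F10-OVA also carries ovalbumin under EF1A. No untreated tumor is among the samples, so each OVA comparison sets tumors with the T cell antigen against tumors without it, both after T cell transfer. The tumors with and without antigen are of separate lines, so the antigen and any other difference between the lines cannot be told apart. The labels do not say whether libraries of a group came from separate mice. The p-values therefore speak only of how much such libraries vary, which may be technical in part.

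Cytotoxic T cells kill targets by releasing granules and by presenting death ligands. Fasl binds Fas, and Tnfsf10 (TRAIL) binds Tnfrsf10b, the TRAIL death receptor of the mouse. Either receptor can recruit Casp8, which activates further caspases and cleaves Bid, a BH3-only protein that carries the signal to mitochondria. Gasdermins, once cut by a caspase, form pores in the plasma membrane: Gsdmd is best known as a substrate of inflammatory caspases and Gsdme as one cut during apoptosis.

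Library totals ran from 15494683 to 33263730 counts. Mitochondrial genes took 6.42% to 6.57% of them in OVA tumor cells and 1.71% to 1.80% in B16-F10 tumor cells. In OVA and B16-F10 T cells they took 2.76% to 2.79% and 3.22% to 3.37%. Levels are given as CPM, counts scaled to the library total. The groups were not single cell types by their marker genes. In OVA and B16-F10 T cells, 12 endothelial markers summed to 10155 to 10220 and 10899 to 11012 CPM, and 14 T cell markers to 979.97 to 984.28 and 997 to 1011 CPM. In OVA and B16-F10 tumor cells, 12 melanoma markers summed to 9993 to 10010 and 23441 to 23528 CPM. In the same tumor groups, 12 macrophage and monocyte markers summed to 2739 to 2758 and 15.6 to 16.7 CPM, and the T cell markers to 133 to 141 and 4.32 to 5.00 CPM, with Cd3e, Trac, Trbc2, Cd2 and Cd6 at 0 in B16-F10 tumor cells. Every member value below therefore describes a sorted fraction.

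The promoters of Tnfsf10, Fas and Casp8, which were higher in OVA than in B16-F10 T cells, and of Fasl, which was lower, are shown with the result of a search for interferon response motifs. Each is the 250 bases before the RefSeq start on the gene's strand, in build GRCm38.p6, credited to RefSeq. That build is not the GRCm39 of the counts, and only the letters were used. Capitals mark matches, on either strand, to an interferon regulatory factor core (AANNGAAA) or an interferon gamma activated site, GAS (TTCNNNGAA).
Tnfsf10, chr3:27316827-27317076, plus strand: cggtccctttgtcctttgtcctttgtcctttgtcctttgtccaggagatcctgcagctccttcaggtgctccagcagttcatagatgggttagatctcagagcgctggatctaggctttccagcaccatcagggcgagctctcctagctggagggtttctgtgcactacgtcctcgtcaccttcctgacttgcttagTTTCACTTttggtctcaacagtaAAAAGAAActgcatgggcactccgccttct
Fas, chr19:34290409-34290658, plus strand: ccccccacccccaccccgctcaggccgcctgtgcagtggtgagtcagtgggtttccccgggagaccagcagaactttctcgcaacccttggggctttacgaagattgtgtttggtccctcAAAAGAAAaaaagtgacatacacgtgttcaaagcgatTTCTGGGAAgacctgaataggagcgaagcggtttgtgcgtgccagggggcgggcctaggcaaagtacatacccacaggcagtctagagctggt
Casp8, chr1:58802252-58802501, plus strand: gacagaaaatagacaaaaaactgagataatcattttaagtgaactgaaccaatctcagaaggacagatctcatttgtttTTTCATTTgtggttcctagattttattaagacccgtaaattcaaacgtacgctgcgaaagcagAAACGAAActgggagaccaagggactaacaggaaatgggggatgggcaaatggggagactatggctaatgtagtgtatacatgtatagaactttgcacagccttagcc
Fasl, chr1:161788496-161788745, minus strand: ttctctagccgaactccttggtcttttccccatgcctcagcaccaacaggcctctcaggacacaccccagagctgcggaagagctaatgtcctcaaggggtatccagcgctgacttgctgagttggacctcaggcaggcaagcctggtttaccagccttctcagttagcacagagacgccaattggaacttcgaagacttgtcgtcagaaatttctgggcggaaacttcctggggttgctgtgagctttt
The Tnfsf10 window held the interferon regulatory factor core from 53 to 46 and again from 30 to 23 bases before the start. The Fas window held it from 130 to 123 bases before the start and a GAS from 93 to 85 bases before it. The Casp8 window held the core from 171 to 164 and from 108 to 101 bases before the start. The Fasl window held neither. Those of Bid and Gsdme, which like Tnfsf10, Fas and Casp8 were higher in OVA than in B16-F10 T cells, also held neither. Of 32851 promoter windows of the same length, 21.3% held the core and 7.02% the GAS. The longer interferon-stimulated response element (ISRE), which contains the core and is in 2.98% of the windows, was in none of the 6 member promoters searched. Tnfrsf10b and Gsdmd were not searched. A match is a description of letters, not a bound site.

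**Figure D1:**
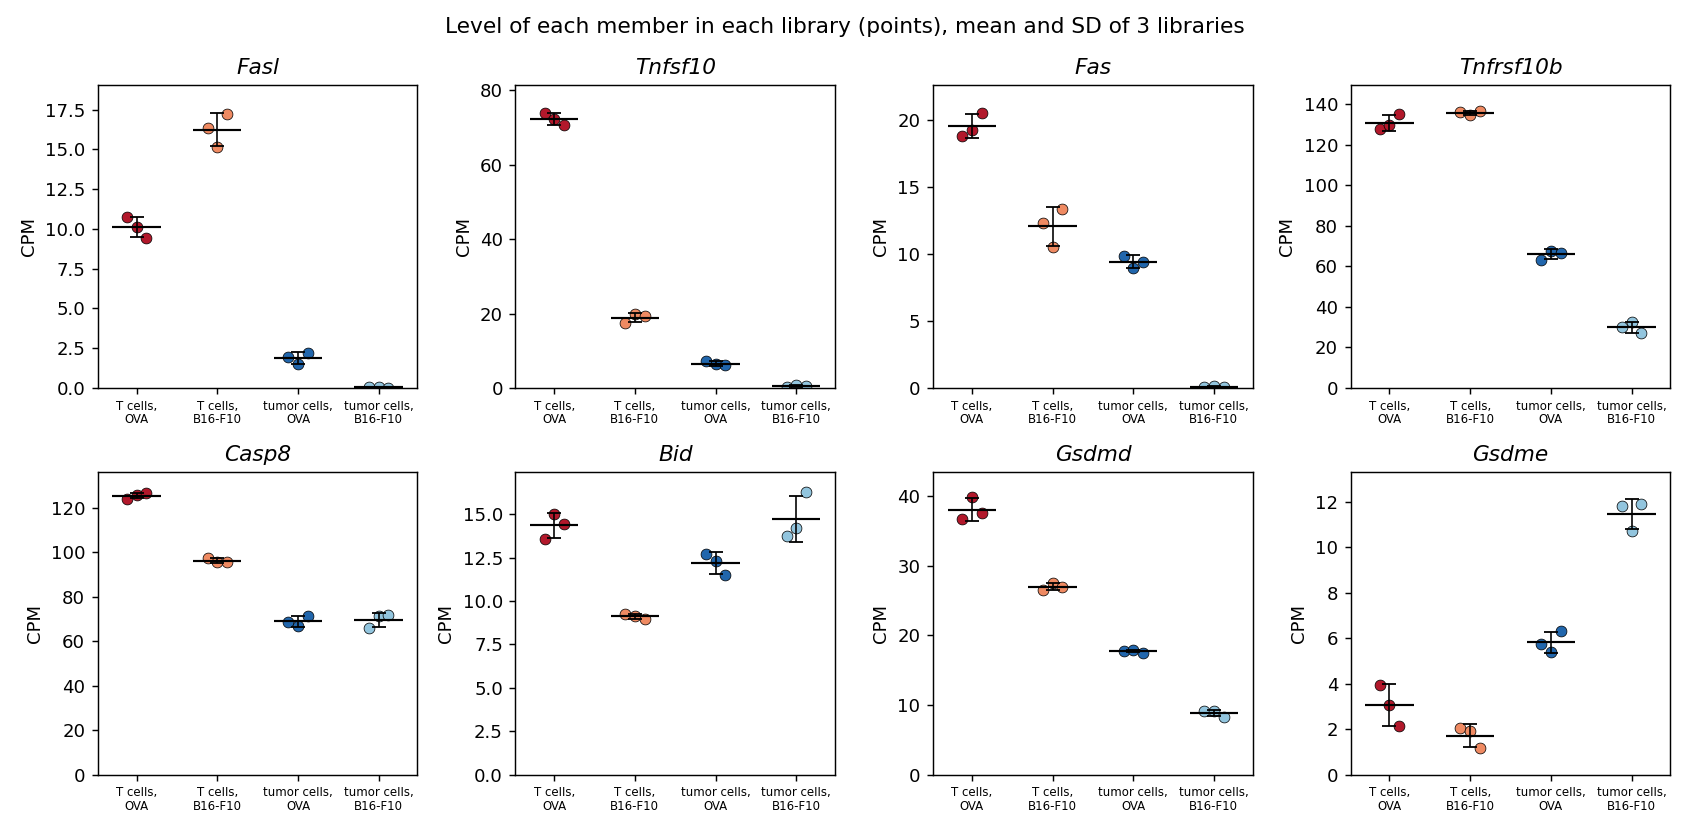
Level of each member in each of the 12 libraries, in CPM on a linear axis that starts at 0, by group; points are libraries, long bars group means and error bars SD of 3 libraries. Tnfsf10 is highest in OVA T cells (70.7 to 73.9 CPM), Fasl in B16-F10 T cells (15.1 to 17.2 CPM) and Gsdme in B16-F10 tumor cells (10.7 to 11.9 CPM).

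Among the ligands, Tnfsf10 (ENSMUSG00000039304) had 73.9, 72.3 and 70.7 CPM in OVA T cells, 17.5, 19.9 and 19.4 CPM in B16-F10 T cells, 7.22, 6.35 and 6.12 CPM in OVA tumor cells, and 0.329, 0.818 and 0.581 CPM in B16-F10 tumor cells. No groups overlapped, and OVA T cells stood above all other libraries. How many of all genes separate the groups in this way was not counted, here or for the members below. Fasl (ENSMUSG00000000817) had 10.8, 10.1 and 9.46 CPM in OVA T cells, 16.3, 15.1 and 17.2 CPM in B16-F10 T cells, and 1.92, 1.49 and 2.21 CPM in OVA tumor cells. In B16-F10 tumor cells its libraries held 1, 1 and 0 counts. Again no groups overlapped, but here B16-F10 T cells were the highest.

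Among the receptors, Fas (ENSMUSG00000024778) had 18.8, 19.2 and 20.5 CPM in OVA T cells, 12.3, 10.5 and 13.4 CPM in B16-F10 T cells, 9.86, 8.90 and 9.41 CPM in OVA tumor cells, and 1, 4 and 1 counts (0.0470, 0.172 and 0.0528 CPM) in B16-F10 tumor cells. The 4 groups did not overlap, and B16-F10 tumor cells were close to 0. Tnfrsf10b (ENSMUSG00000022074) had 128, 129.6 and 135 CPM in OVA T cells, 136, 135 and 137 CPM in B16-F10 T cells, 63.2, 67.8 and 66.8 CPM in OVA tumor cells, and 30.0, 32.6 and 26.9 CPM in B16-F10 tumor cells. The T cell groups overlapped, and both tumor groups were clear of them and of each other. In all 3 B16-F10 tumor libraries the TRAIL receptor was thus well detected, while Fas rested on 6 counts in all.

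Of the intracellular members, Casp8 (ENSMUSG00000026029) had 124, 126 and 126 CPM in OVA T cells, 97.5, 95.5 and 95.7 CPM in B16-F10 T cells, 68.6, 66.7 and 71.3 CPM in OVA tumor cells, and 66.1, 71.4 and 71.7 CPM in B16-F10 tumor cells. The tumor groups overlapped. Bid (ENSMUSG00000004446) had 13.6, 15.0 and 14.5 CPM in OVA T cells, 9.22, 9.15 and 8.97 CPM in B16-F10 T cells, 12.7, 12.3 and 11.5 CPM in OVA tumor cells, and 13.7, 14.2 and 16.3 CPM in B16-F10 tumor cells. B16-F10 T cells had the least Bid, and OVA T cells overlapped B16-F10 tumor cells. In an annotation of build GRCm38 (GENCODE M21), 17.7% of the exon bases of Bid are shared with Bcl2l13 on the opposite strand, and reads of the pair cannot be told apart here because the strand setting of the counting is not known.

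Gsdmd was highest in T cells and Gsdme in tumor cells. Gsdmd (ENSMUSG00000022575) had 36.8, 39.9 and 37.5 CPM in OVA T cells, 26.6, 27.6 and 26.9 CPM in B16-F10 T cells, 17.8, 17.9 and 17.5 CPM in OVA tumor cells, and 9.07, 9.13 and 8.34 CPM in B16-F10 tumor cells. Gsdme (ENSMUSG00000029821) had 3.96, 3.08 and 2.12 CPM in OVA T cells, 2.07, 1.92 and 1.16 CPM in B16-F10 T cells, 5.74, 5.39 and 6.32 CPM in OVA tumor cells, and 11.8, 10.7 and 11.9 CPM in B16-F10 tumor cells. Neither gene overlapped between groups, although the lowest OVA T cell library for Gsdme was barely above the highest B16-F10 T cell library.

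Between genes, levels were compared per kilobase of merged exon length (GENCODE M21). Casp8 was the highest member in every group, at 43.4, 33.3, 23.8 and 24.1 CPM per kilobase in OVA T cells, B16-F10 T cells, OVA tumor cells and B16-F10 tumor cells. Tnfrsf10b was second in every group, at 24.0, 24.9, 12.1 and 5.47 CPM per kilobase in the same groups. In OVA T cells Tnfsf10 stood at 13.7 and Fasl at 5.22 CPM per kilobase, and in B16-F10 T cells Tnfsf10 stood at 3.59 and Fasl at 8.38, so that the more abundant ligand per length differed between the T cell groups. Gsdme was the lowest member per kilobase in OVA T cells (0.240), B16-F10 T cells (0.135) and OVA tumor cells (0.456). In B16-F10 tumor cells it was not, with 0.901 against 0.0440 for Fas and 0.0155 for Fasl. Its merged exon length was 12.7 kilobases, the longest of the members, and the transcripts expressed may be shorter. In OVA tumor cells it was lowest only per length, with 5.81 CPM against 1.88 CPM for Fasl.

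In tumor cells, the comparison asks how the melanoma fraction of antigen-bearing tumors differed from that of antigen-free tumors after T cell transfer. Both ligands, both receptors and Gsdmd were over 2-fold higher in OVA than in B16-F10 tumor cells, Gsdme was lower, and Casp8 and Bid differed little. Of the 8 members, 6 were called higher and 1 lower by edgeR's quasi-likelihood F test at an adjusted p of 0.05. Fas and Fasl passed the filter on low counts through OVA tumor cells alone, so neither could have been called lower. The background was wide: 79.4% of the 17418 genes tested were called, 42.0% higher and 37.4% lower. Beyond 2-fold by glmTreat there were 5 members, all higher, with 26.8% of all genes, 22.2% higher and 4.58% lower. In bulk samples, fewer cells of a type and less RNA per cell cannot be told apart.

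Fas averaged 9.39 ± 0.478 CPM in OVA and 0.0907 ± 0.0707 CPM in B16-F10 tumor cells (SD, n = 3 libraries each, as for all levels below), a log2 fold change of 6.73 (SE 0.23, edgeR adjusted p = 1.01e-17). B16-F10 tumor library 2 held 4 of the 6 Fas counts of its group, and without it the log2 fold change was 7.58. For Fasl the ratio of OVA to B16-F10 tumor cells, from pooled counts over pooled library totals, was 60.7. Its 95% Clopper-Pearson interval of 16.5 to 506 covers counting error only. Tnfsf10 averaged 6.56 ± 0.580 CPM in OVA and 0.576 ± 0.245 CPM in B16-F10 tumor cells, a log2 fold change of 3.66 (SE 0.20, edgeR adjusted p = 5.71e-14). These were also the members with the fewest reads in B16-F10 tumor cells, at 6, 2 and 37 counts over the group. Immune and stromal markers moved with them: beside the macrophage and T cell sums given above, endothelial markers summed to 4464 to 4530 CPM in OVA and 331 to 334 CPM in B16-F10 tumor cells, and fibroblast markers to 2689 to 2710 and 213 to 220 CPM in the same groups. Neutrophil markers summed to 241 to 243 CPM in OVA and 1.08 to 1.55 CPM in B16-F10 tumor cells, where Ly6g, Mmp8 and Retnlg were at 0. The part of these cells in the members' values was not tested.

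Tnfrsf10b averaged 65.9 ± 2.40 CPM in OVA and 29.8 ± 2.88 CPM in B16-F10 tumor cells, a log2 fold change of 1.30 (SE 0.050, edgeR adjusted p = 7.49e-17). Gsdmd, at 17.7 ± 0.189 CPM in OVA and 8.85 ± 0.442 CPM in B16-F10 tumor cells, had a log2 fold change of 1.17 (SE 0.069, edgeR adjusted p = 2.77e-13). Both were higher in every OVA library than in any B16-F10 library. Gsdme averaged 5.81 ± 0.470 CPM in OVA and 11.5 ± 0.659 CPM in B16-F10 tumor cells and fell by 0.80 on the log2 scale (SE 0.090, edgeR adjusted p = 2.52e-08). Fold changes use TMM scaling between libraries while CPM uses totals alone, so the scales can part. Casp8 is the case in point: its mean was 68.9 ± 2.33 CPM in OVA and 69.7 ± 3.14 CPM in B16-F10 tumor cells, yet its fitted log2 fold change was 0.15 (SE 0.036, edgeR adjusted p = 0.000449), and with library totals it was -0.014 (adjusted p = 0.718). Bid had a log2 fold change of -0.10 with a 95% interval of -0.25 to 0.06 (edgeR adjusted p = 0.238), and with library totals it was called lower, at -0.26 (adjusted p = 0.00263).

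The directions in tumor cells depended on what was held equal. Scaling the libraries so that the median log2 ratio of the melanoma markers was 0 moved the median of all genes by 1.18 on the log2 scale. The calls were then 97.0% higher, against 52.9% under TMM. All 8 members were then higher, with Gsdme at 0.38 and Bid at 1.09 in place of their negative values. Relative to the melanoma markers, Fas stood at 7.88, Tnfsf10 at 4.83, Tnfrsf10b at 2.48 and Gsdmd at 2.35. Library totals moved the median of all genes by -0.17.

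**Figure D2:**
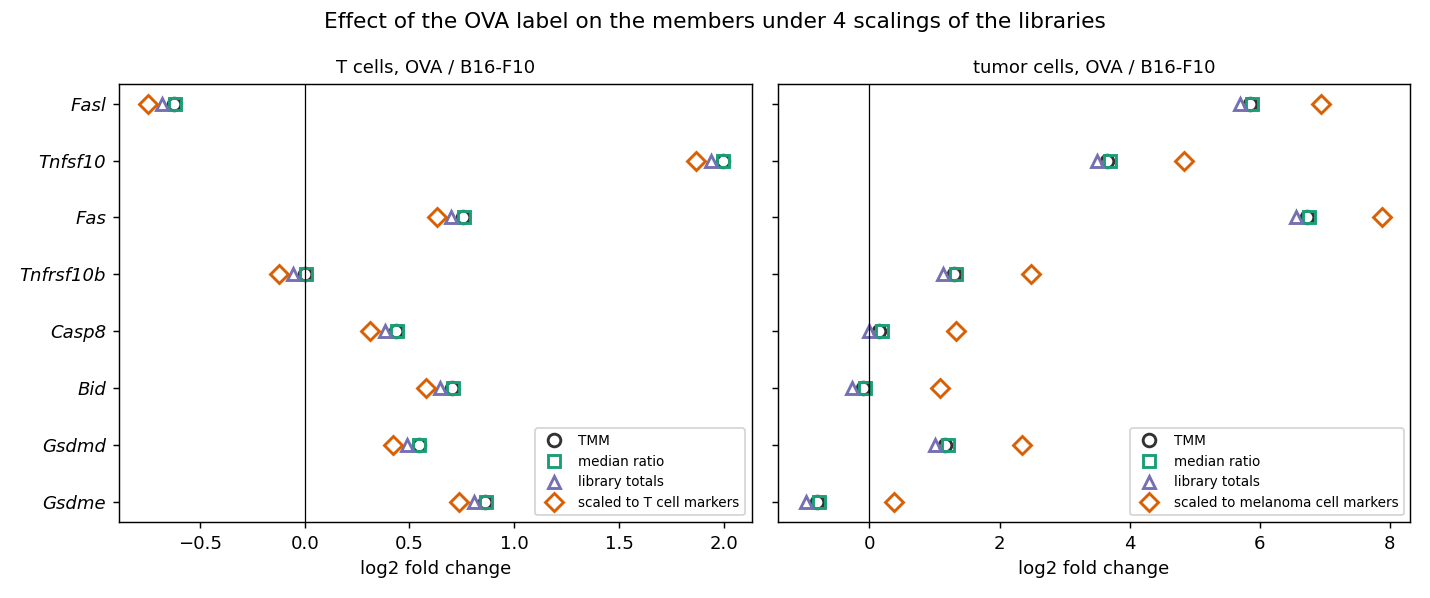
log2 fold change of each member, OVA over B16-F10, in tumor cells and in T cells under each scaling of the libraries. In tumor cells the melanoma-marker scaling lifts every member, with Gsdme at 0.38 in place of -0.80, and in T cells the T cell marker scaling shifts the members by about -0.13.

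Of 53 further genes of the pathway, 44 passed the filter on low counts in tumor cells, of which 29 were higher in OVA tumor cells, 10 lower and 5 not called, with a median log2 fold change of 0.55 against 0.04 over all genes tested. Genes near 0 in B16-F10 tumor cells, such as Tnfrsf21, Casp1 and Ripk3, passed through OVA tumor cells alone and could not have been called lower. Of 7 other death and decoy receptors, 6 were higher and 1 lower. Tnfrsf23, a decoy receptor of the mouse, averaged 37.1 ± 1.98 CPM in OVA and 0.260 ± 0.134 CPM in B16-F10 tumor cells, a log2 fold change of 7.26 (SE 0.13, edgeR adjusted p = 4.30e-23). For Tnfrsf21 (death receptor DR6) the ratio of OVA to B16-F10 tumor cells was 1083 with a counting interval of 300 to 8948, on 2 counts in the B16-F10 group. The TNF receptor Tnfrsf1a was higher by 0.72 (SE 0.021, edgeR adjusted p = 2.28e-19), while Tnfrsf11b (osteoprotegerin, a soluble decoy that binds TRAIL) fell by 0.64 (SE 0.065, edgeR adjusted p = 6.43e-09). Both tested ligands were higher, but they too passed the filter through OVA tumor cells alone, and Lta did not pass. Tnf averaged 48.5 ± 0.281 CPM in OVA and 0.192 ± 0.0638 CPM in B16-F10 tumor cells. Tnfsf15, at 0 counts in B16-F10 tumor cells, was at least 15.95-fold higher, taking 3 counts over the group as its floor.

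Of 9 adaptors and brakes of the receptor complex, 4 were higher, 2 lower and 3 not called in OVA tumor cells. The ubiquitin ligases Birc3 and Birc2 were higher, by 5.15 (SE 0.066, edgeR adjusted p = 3.46e-26) and 1.05 (SE 0.069, adjusted p = 2.25e-12). Cflar, the inactive relative of Casp8 that restrains it (c-FLIP), averaged 249.7 ± 1.61 CPM in OVA and 378 ± 4.06 CPM in B16-F10 tumor cells and fell by 0.43 (SE 0.016, edgeR adjusted p = 4.78e-17). The adaptor Fadd was higher by 0.35 (SE 0.065, edgeR adjusted p = 4.17e-05). Of 9 other caspases, 8 passed the filter, 6 being higher and 2 lower. The inflammatory caspases Casp4 and Casp1 were higher by 4.05 (SE 0.11, edgeR adjusted p = 3.45e-20) and 5.91 (SE 0.25, adjusted p = 4.80e-16). Casp1 had 8 counts over the B16-F10 tumor libraries. Casp2 fell by 1.46 (SE 0.031, edgeR adjusted p = 8.00e-22). Casp2 stayed lower, at -0.28, under the melanoma-marker scaling, whereas Cflar, Tnfrsf11b and Mlkl reversed to 0.75, 0.55 and 0.85.

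Of 9 genes of the mitochondrial arm and DNA fragmentation, 5 were higher, 3 lower and 1 not called in OVA tumor cells. Xiap, an inhibitor of caspases, was higher by 1.08 (SE 0.027, edgeR adjusted p = 2.07e-20) and the pore former Bak1 by 0.75 (SE 0.029, adjusted p = 9.84e-17), although 25.5% of the exon bases of Bak1 lie opposite another gene. Cycs, cytochrome c, fell by 1.10 (SE 0.039, edgeR adjusted p = 1.66e-17) and stood at 0.08 under the melanoma-marker scaling. Of the necroptosis genes, the kinase Ripk3 was higher by 8.12 (SE 0.13, edgeR adjusted p = 3.53e-24), on 9 counts in B16-F10 tumor cells. Its pore-forming substrate Mlkl and the nucleic acid sensor Zbp1 fell by 0.33 (SE 0.048, adjusted p = 1.50e-06) and 0.87 (SE 0.044, adjusted p = 1.71e-14), and Zbp1 reversed to 0.31 under the melanoma-marker scaling. Of 13 other gasdermins and lytic partners only 6 passed the filter, 5 being higher and 1 not called. Il1b averaged 292 ± 3.14 CPM in OVA and 0.946 ± 0.00516 CPM in B16-F10 tumor cells, and the inflammasome sensor Nlrp3 263 ± 2.94 and 0.779 ± 0.376 CPM in the same groups. Ninj1, which ruptures the membrane of dying cells, was higher by 1.33 (SE 0.034, edgeR adjusted p = 2.95e-20). The macrophage and neutrophil marker sums given above moved with Il1b, Nlrp3 and Ripk3, and their part was not tested.

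In T cells, the comparison asks how T cells recovered from antigen-bearing tumors differed from those of antigen-free tumors. Tnfsf10 was 3.99-fold higher in OVA than in B16-F10 T cells, and Fasl was lower. Fas, Casp8, Bid, Gsdmd and Gsdme were higher by less than 2-fold, and Tnfrsf10b was not called. This gave 6 members called higher and 1 lower, with 46.1% of the 16536 genes tested called, 23.7% higher and 22.4% lower. Beyond 2-fold by glmTreat only Tnfsf10 among the members passed, with 2.72% of all genes, 1.79% higher and 0.931% lower.

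Tnfsf10 averaged 72.3 ± 1.59 CPM in OVA and 18.9 ± 1.25 CPM in B16-F10 T cells, a log2 fold change of 1.99 (SE 0.048, edgeR adjusted p = 1.71e-22). Of the genes tested, 151 had a larger log2 fold change. Fasl averaged 10.1 ± 0.649 CPM in OVA and 16.2 ± 1.05 CPM in B16-F10 T cells and fell by 0.62 on the log2 scale (SE 0.079, edgeR adjusted p = 2.20e-07). The T cell marker sum differed little between these groups (979.97 to 984.28 CPM in OVA and 997 to 1011 CPM in B16-F10 T cells). NK cell markers summed to 57.6 to 58.2 CPM in OVA and 35.0 to 37.1 CPM in B16-F10 T cells, with 2 of 8 at 5 CPM or more in each. Neutrophil markers summed to 72.8 to 76.5 and 41.0 to 44.6 CPM in the same groups, macrophage and monocyte markers to 857 to 865 and 805 to 811 CPM, and dendritic cell markers to 267 to 275 and 345 to 356 CPM. Fibroblast markers summed to 6798 to 6911 CPM in OVA and 7112 to 7246 CPM in B16-F10 T cells. These and the endothelial sums given above exceeded the T cell sums. The part of all these other cells in the ligand values was not tested.

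Fas averaged 19.5 ± 0.877 CPM in OVA and 12.1 ± 1.44 CPM in B16-F10 T cells, a log2 fold change of 0.76 (SE 0.077, edgeR adjusted p = 4.08e-09). Tnfrsf10b averaged 131 ± 3.89 CPM in OVA and 136 ± 1.02 CPM in B16-F10 T cells. Its log2 fold change was 0.00 with a 95% interval of -0.05 to 0.05 (edgeR adjusted p = 0.950), the narrowest interval of any member in this comparison. Casp8 was higher by 0.44 (SE 0.025, edgeR adjusted p = 5.43e-14) and Bid by 0.70 (SE 0.080, adjusted p = 3.18e-08). Gsdmd, at 38.1 ± 1.61 CPM in OVA and 27.0 ± 0.503 CPM in B16-F10 T cells, was higher by 0.55 (SE 0.050, edgeR adjusted p = 6.54e-10). Gsdme, at 3.05 ± 0.918 CPM in OVA and 1.72 ± 0.488 CPM in B16-F10 T cells, was higher by 0.86 (SE 0.23, edgeR adjusted p = 0.00325), and lost its call without OVA T cell library 1 (0.61, adjusted p = 0.0598). Melanoma markers, like Gsdme highest in B16-F10 tumor cells, summed to 107 to 113 CPM in OVA and 242 to 249 CPM in B16-F10 T cells. The part of melanoma cells in the Gsdme values was not tested.

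Scaling the T cell libraries to the T cell markers moved the median of all genes by -0.13 and the calls to 26.0% higher, against 51.3% under TMM, and library totals gave 38.7% higher. Under the T cell marker scaling the members were 6 higher and 2 lower, as Tnfrsf10b was called at -0.12 (adjusted p = 0.00153). Tnfsf10 stood at 1.87 and Fasl at -0.75.

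Of the 53 further genes, 45 passed the filter in T cells, of which 22 were higher in OVA T cells, 6 lower and 17 not called, with a median log2 fold change of 0.14 against -0.01 over all genes tested. Of 7 receptors, 3 were higher, 2 lower and 2 not called. The 3 higher ones were Tnfrsf23, Tnfrsf26 and Tnfrsf22, at 0.91 (SE 0.029, edgeR adjusted p = 7.02e-20), 1.05 (SE 0.059, adjusted p = 2.01e-14) and 0.64 (SE 0.041, adjusted p = 4.06e-13). They are close relatives in a gene cluster, so reads they share may be counted uncertainly. Tnfrsf11b fell by 1.05 (SE 0.13, edgeR adjusted p = 1.34e-07). Of 3 ligands, 2 were higher and 1 was not called: Tnf averaged 35.5 ± 1.52 CPM in OVA and 16.1 ± 1.34 CPM in B16-F10 T cells, and Lta was higher by 0.92 (SE 0.29, edgeR adjusted p = 0.00981).

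Of 9 adaptors and brakes, 3 were higher, 1 lower and 5 not called in OVA T cells. Cflar averaged 449.8 ± 2.53 CPM in OVA and 228 ± 6.31 CPM in B16-F10 T cells, a log2 fold change of 1.04 (SE 0.019, edgeR adjusted p = 2.13e-25). The kinase Ripk1 was higher by 0.72 (SE 0.024, edgeR adjusted p = 2.18e-19) and the adaptor Traf2 by 0.48 (SE 0.067, adjusted p = 9.18e-07). Fadd had a log2 fold change of -0.20 and was not called (edgeR adjusted p = 0.112). Of the 8 caspases tested, 5 were higher and 3 not called. Casp4 was higher by 1.04 (SE 0.042, edgeR adjusted p = 1.68e-17) and Casp12 by 0.34 (SE 0.062, adjusted p = 5.88e-05). Casp1 was higher by 0.38 (SE 0.10, edgeR adjusted p = 0.00362), but by 0.23 (adjusted p = 0.0644) without B16-F10 T cell library 1.

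Of the mitochondrial list, 3 were higher, 2 lower and 4 not called in OVA T cells. Apaf1, the scaffold of the apoptosome, was higher by 0.40 (SE 0.022, edgeR adjusted p = 1.78e-14), and Xiap and the pore former Bax by 0.13 each, both at 0.00 under the T cell marker scaling. All 3 necroptosis genes were higher, Zbp1 by 1.13 (SE 0.038, edgeR adjusted p = 3.28e-19), Mlkl by 0.41 (SE 0.046, adjusted p = 2.32e-08) and Ripk3 by 0.32 (SE 0.029, adjusted p = 7.12e-10). Of the 6 gasdermins and lytic partners tested, 3 were higher, 1 lower and 2 not called. Nlrp3 was higher by 1.55 (SE 0.034, edgeR adjusted p = 1.77e-23), Il1b by 1.28 (SE 0.026, adjusted p = 2.96e-24) and Ninj1 by 0.55 (SE 0.038, adjusted p = 2.46e-12). Gsdmc fell by 2.01 (SE 0.44, edgeR adjusted p = 0.00043) at a low level, 0.197 ± 0.0829 CPM in OVA and 0.842 ± 0.226 CPM in B16-F10 T cells, and it averaged 49.1 ± 1.38 and 43.0 ± 0.540 CPM in OVA and B16-F10 tumor cells. Gsdma2, Gsdmc2 and Gsdmc3 had 0 counts in all 12 libraries, and near-identical copies in the Gsdma and Gsdmc clusters leave the counting there uncertain.

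**Figure D3:**
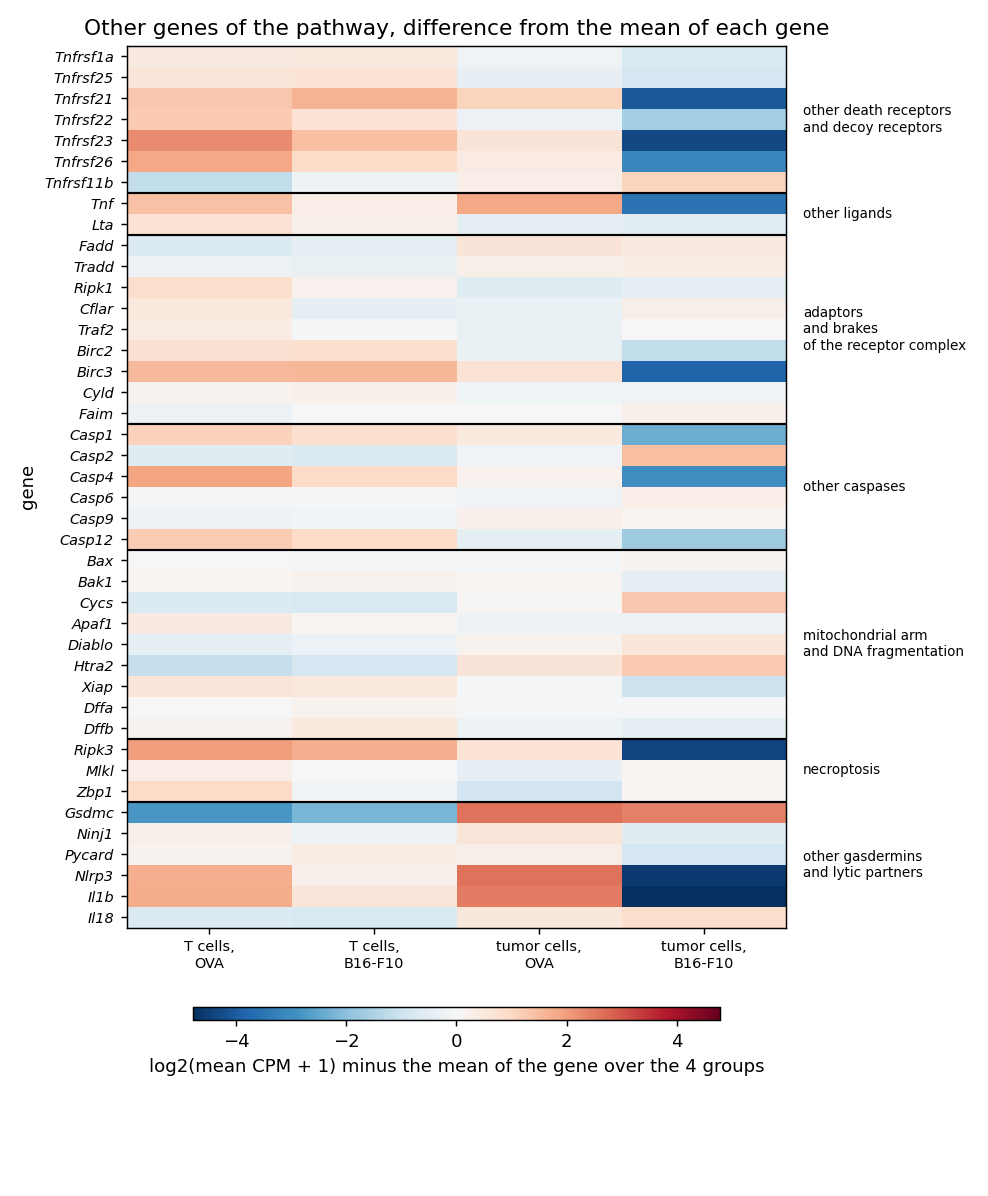
Other pathway genes by group, as log2(mean CPM + 1) minus the mean of the same gene over the 4 groups, for 42 genes that reached 1 CPM in some group. Birc3, Ripk3, Nlrp3 and Il1b are lowest in B16-F10 tumor cells (2.61, 0.146, 0.779 and 0.946 CPM), and Gsdmc is lowest in OVA T cells (0.197 CPM).

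Between the fractions, both ligands, both receptors, Casp8 and Gsdmd were higher in T cells than in tumor cells of the same line, and Gsdme was lower. Bid was higher in OVA T cells than in OVA tumor cells and lower in B16-F10 T cells than in B16-F10 tumor cells. In the OVA groups 7 members were called higher and 1 lower, with 77.5% of the 18562 genes tested called, 37.3% higher and 40.2% lower. In the B16-F10 groups 6 were called higher and 2 lower, with 85.9% of genes called, 45.5% higher and 40.4% lower. Beyond 2-fold by glmTreat there were 5 members in the OVA groups, all higher, with 23.1% of all genes, 10.7% higher and 12.5% lower. In the B16-F10 groups there were 6, of which 5 were higher and 1 lower, with 46.9% of all genes, 29.3% higher and 17.6% lower.

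In the OVA groups, T cells over tumor cells, Tnfsf10 had a log2 fold change of 3.58 (SE 0.062, edgeR adjusted p = 5.99e-26), and 137 genes had a larger one. Fasl followed at 2.53 (SE 0.12, edgeR adjusted p = 5.13e-16), Gsdmd at 1.23 (SE 0.047, adjusted p = 2.91e-18), Fas at 1.18 (SE 0.079, adjusted p = 4.76e-13) and Tnfrsf10b at 1.13 (SE 0.035, adjusted p = 2.07e-20). Casp8 was higher in T cells by 0.99 (SE 0.029, edgeR adjusted p = 7.20e-21) and Bid by 0.36 (SE 0.072, adjusted p = 6.89e-05), and Gsdme fell by 0.80 (SE 0.16, adjusted p = 6.29e-05). In the B16-F10 groups, T cells over tumor cells, the ratio of pooled counts over pooled library totals for Fasl was 514. Its counting interval was 142 to 4248. Fas stood at 7.14 (SE 0.23, edgeR adjusted p = 1.85e-20) and Tnfsf10 at 5.25 (SE 0.14, adjusted p = 8.20e-22) on the log2 scale, and without B16-F10 tumor library 2 Fas stood at 7.98. Tnfrsf10b was higher in T cells by 2.43, Gsdmd by 1.85 and Casp8 by 0.71, and Bid and Gsdme fell by 0.44 (SE 0.082, edgeR adjusted p = 2.34e-05) and 2.46 (SE 0.17, adjusted p = 7.93e-13). Both fractions hold other cells by their markers, as given above, so these folds compare fractions.

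Of the 45 further genes that passed the filter over 12 libraries, 27 were higher in OVA T cells than in OVA tumor cells, 15 lower and 3 not called, with a median of 0.52 against -0.03 over all genes. In the B16-F10 groups 30 were higher in T cells, 10 lower and 5 not called, with a median of 0.90 against 0.12. Of the 6 gasdermins and lytic partners tested, none was higher in OVA T cells than in OVA tumor cells and 5 were lower, whereas in the B16-F10 groups 4 were higher and 2 lower. Fadd fell in T cells by 1.23 (SE 0.080) in the OVA groups and by 0.67 (SE 0.084) in the B16-F10 groups. Cflar was higher in T cells by 0.98 (SE 0.017) in the OVA groups and fell by 0.49 (SE 0.018) in the B16-F10 groups.

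**Figure D4:**
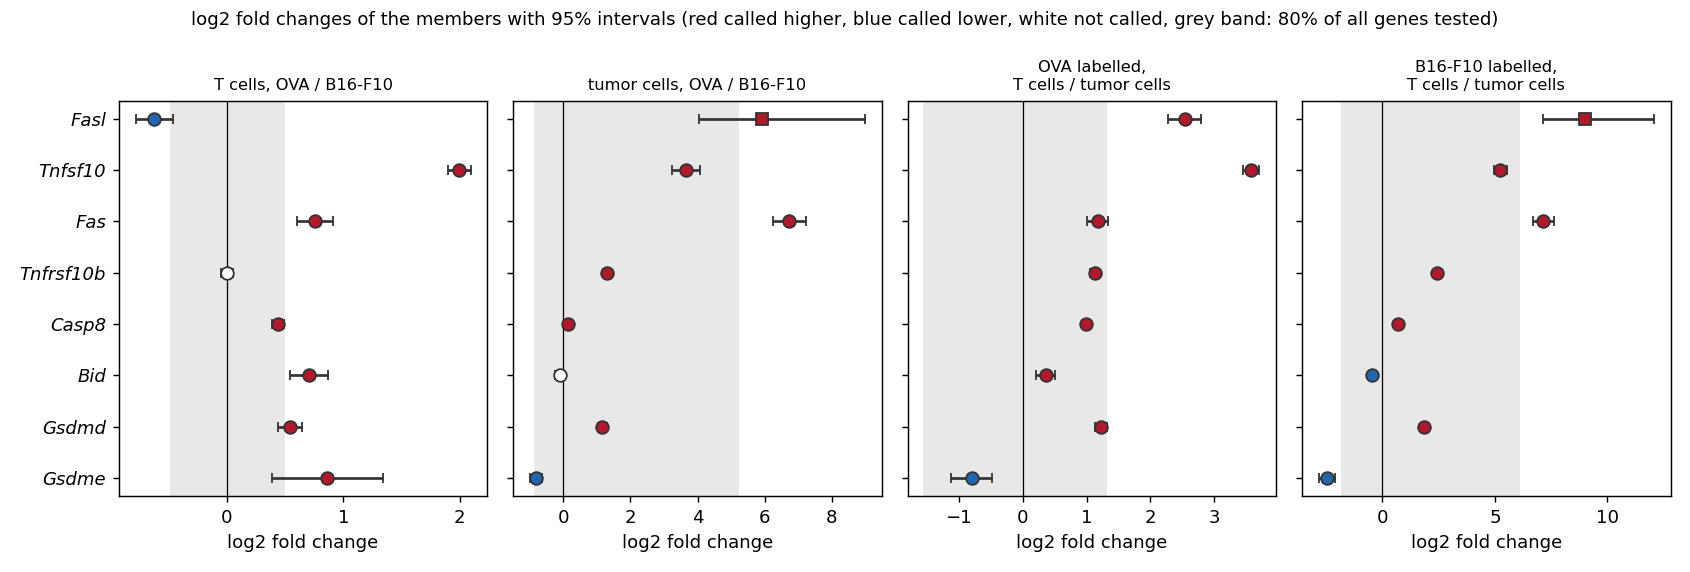
log2 fold change of each member in each of the 4 comparisons, with 95% intervals. Grey bands span the 10th to the 90th percentile of all genes tested. Squares are ratios of pooled counts over pooled library totals, with a counting interval. In T cells Tnfsf10 (1.99) lies outside the band (-0.48 to 0.49) and Tnfrsf10b (0.00) at its middle, while in tumor cells the band reaches from -0.84 to 5.21 and Fas (6.73) lies beyond it.

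The difference between the OVA effects, T cells minus tumor cells, was tested in the fit over 12 libraries. All 8 members were called, 3 higher and 5 lower, with 69.0% of the 18562 genes tested called, 27.7% higher and 41.3% lower. Beyond 2-fold by glmTreat there were 5 members, 1 higher and 4 lower, with 26.8% of all genes, 3.40% higher and 23.4% lower. Under TMM scaling the OVA effect was larger in T cells for Casp8 by 0.28 (SE 0.044, edgeR adjusted p = 3.27e-06), Bid by 0.80 (SE 0.11, adjusted p = 3.71e-07) and Gsdme by 1.66 (SE 0.25, adjusted p = 1.60e-06). The marker scalings turned that order for Casp8, at 0.31 in T cells and 1.34 in tumor cells, and for Bid, at 0.58 and 1.09, and kept it for Gsdme, at 0.73 and 0.38; these differences were not tested. The effect was larger in tumor cells for the ligands, the receptors and Gsdmd, and without B16-F10 tumor library 2 the difference for Fas was -6.81. Of the anchors, Cflar differed by 1.47 (SE 0.024, edgeR adjusted p = 3.42e-26): it was higher in OVA than in B16-F10 T cells and lower in OVA than in B16-F10 tumor cells under TMM scaling. The comparisons share libraries, so the effects are not independent of each other.

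Genes whose pattern over the 4 group means was most like that of a member were found by the root mean square difference of centred log2(CPM + 1), among 11616 genes with at least 5 CPM in a group. For Tnfsf10 they were C1qtnf9, Ackr1 and Has2, at 0.0765, 0.130 and 0.247. For Fasl they were Bcl11b, Lat and Cd96, at 0.162, 0.191 and 0.199. For Fas they were Ptk2b, Adap1 and Gadd45b (0.0510 to 0.132), and for Tnfrsf10b Pls3, S100a13 and Trip10 (0.0182 to 0.0424). For Casp8 they were Nxpe3, Zfp217 and Itgav (0.0424 to 0.0491), and for Bid Cars1, Ggct and Tec (0.0137 to 0.0623). For Gsdmd they were Itpripl1, Pcgf5 and Gna13 (0.0312 to 0.0529), and for Gsdme Calhm5, Atp7a and Nkain1 (0.0501 to 0.0776). C1qtnf9, the closest to Tnfsf10, averaged 45.1, 13.1, 4.34 and 0.0176 CPM in OVA T cells, B16-F10 T cells, OVA tumor cells and B16-F10 tumor cells. Bcl11b, the closest to Fasl, averaged 12.6, 21.9, 2.62 and 0.0176 CPM in the same groups. The likeness rests on 4 values and carries no test.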

How the data were processed

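Messenger RNA of 12 mouse libraries was sequenced after poly-T selection, per the labels' protocols. The deposited file gives raw, unscaled read counts by Ensembl identifier and library. The authors aligned reads to GRCm39 with HISAT2 2.0.5 and counted with featureCounts 1.6.0, per the submitters' processing notes. The strand setting, the handling of multi-mapping reads and the annotation release are not given in the sources used here. The file has 77175 genes, 21805 of them without a symbol. All 53 pathway genes and 86 cell type markers were found.

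CPM divides counts by library totals. Testing used edgeR 4.0.16 in R 4.3.3: filterByExpr by group, TMM, quasi-likelihood F tests and Benjamini-Hochberg adjustment over all genes tested, called at 0.05. Each OVA effect was fitted on its 6 libraries. The comparisons between fractions and the difference between OVA effects were fitted on all 12. Standard errors were derived from the F statistic. Calls beyond 2-fold used glmTreat. A group with 1 to 3 counts got a CPM ratio with a 95% Clopper-Pearson interval, and a group at 0 a bound at 3 counts over the group. Both cover counting error only, and PCR reads are not independent molecules.

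Alternatives were other scalings (median ratio, library totals, melanoma or T cell markers), DESeq2 1.42.0, limma-voom (limma 3.58.1), no filter, at least 1 CPM in at least 3 libraries, glmTreat, 1 fit over 12 libraries, a replicate block, and leaving out each library. The fit was tested on simulated counts. Libraries of a group differed by more than counting noise, so none was taken for a copy of another. That check cannot tell separate mice from technical repeats, and all libraries were entered as separate. The text names the members, a fixed set of anchors (Cflar, Fadd, Casp1, Tnfrsf11b, Mlkl), and per list up to 3 called genes with the smallest adjusted p, plus Gsdmc and the genes at 0, which were chosen after their values were seen. The members and lists were chosen with earlier results of these data known. The transgenes were not analysed here. Some genes of the lists are counted but not reported here by name.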

Additional observations from a re-analysis of the deposited data

Results flagged for a closer look

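The OVA effect (OVA over B16-F10) was tested for a difference between T cells and tumor cells in 1 fit over the 12 libraries, and each gene below was flagged because that difference passed edgeR's quasi-likelihood test with Benjamini-Hochberg adjustment. Differences are T cells minus tumor cells on the log2 scale. Among the ligands, Tnfsf10 differed by -1.67 (SE 0.22, adjusted p = 2.40e-07), with effects of 2.00 in T cells and 3.67 in tumor cells. Fasl differed by -6.45 (adjusted p = 2.36e-13), with an effect of -0.62 in T cells, a size that depends on the prior count because B16-F10 tumor cells held 2 counts. Fas differed by -5.96 (SE 0.29, adjusted p = 4.59e-16), on 6 counts in B16-F10 tumor cells, and by -6.81 without B16-F10 tumor library 2, which held 4 of them. Tnfrsf10b differed by -1.30 (SE 0.057, adjusted p = 7.81e-17). The effects for Tnfrsf10b were 0.0075 in T cells and 1.30 in tumor cells. Casp8 differed by 0.28 (adjusted p = 3.27e-06), Bid by 0.80 (adjusted p = 3.71e-07), Gsdmd by -0.62 (adjusted p = 1.51e-07) and Gsdme by 1.66 (adjusted p = 1.60e-06).

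Of the anchors, Cflar differed by 1.47 (adjusted p = 3.42e-26), with effects of 1.05 in T cells and -0.42 in tumor cells, and Mlkl by 0.74 (adjusted p = 1.07e-10), with effects of 0.42 and -0.32. Casp1 differed by -5.52 (adjusted p = 2.76e-14), Fadd by -0.56 (adjusted p = 0.00019) and Tnfrsf11b by -0.42 (adjusted p = 0.00758). With DESeq2 the difference for Tnfrsf11b was not called (-0.37, adjusted p = 0.0566). The scaling of the tumor libraries sets the level of every tumor effect here, and the negative tumor effects of Bid, Gsdme, Cflar, Mlkl and Tnfrsf11b reversed under the melanoma-marker scaling. With each fraction scaled to its own markers, the effects in T cells and tumor cells were 0.31 and 1.34 for Casp8, 0.58 and 1.09 for Bid, and 0.29 and 0.85 for Mlkl, the opposite order to that above.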

How the results depend on the processing

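Leaving out 1 library at a time moved the genes called to 13528 to 14021 in tumor cells, 6904 to 7186 in T cells, 13936 to 14637 and 15855 to 16390 between the fractions (OVA groups, then B16-F10 groups), and 12581 to 12813 for the difference; the members called were the same apart from Gsdme in T cells. The test against 2-fold left 4664, 450, 4295, 8713 and 4970 genes in the same order. It called 0 members lower in tumor cells, 1 higher and 0 lower in T cells, 0 lower (OVA) and 1 lower (B16-F10) between the fractions, and 1 higher for the difference. Library totals gave 2 members lower in tumor cells, as Bid was called at -0.26 (edgeR adjusted p = 0.00263). Casp8 stood at -0.014 there and lost its call (edgeR adjusted p = 0.718). Mlkl between the B16-F10 fractions stood at -0.10 with library totals. The melanoma-marker scaling gave 0 members lower, with Bid at 1.09, Gsdme at 0.38, Cflar at 0.75, Tnfrsf11b at 0.55 and Mlkl at 0.85. The T cell marker scaling gave 2 lower, with Tnfrsf10b at -0.12. Each marker scaling holds its own marker list equal by construction; other causes of these moves were not tested. Under settings other than leaving out a library, 331 member values kept their call or stayed not called, and those not called could change sign. A further 16 kept their sign but lost the call, all in the test against 2-fold, and 1 kept its sign and gained it (Bid in tumor cells with library totals). Another 4 changed sign. Casp8 in tumor cells did so with library totals and lost its call. Gsdme and Bid in tumor cells did so under the melanoma-marker scaling, and Tnfrsf10b in T cells under the T cell marker scaling. Of these, Bid and Tnfrsf10b went from not called to called.

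Same-numbered libraries were not treated as paired, because the labels do not state a pairing. The correlations of their deviations ran from -0.0494 to 0.0546. With 3 libraries per group these cannot show whether such libraries came from the same tumor. With the replicate block, 13656, 7576, 14310, 15905 and 12723 genes were called in the order above, against 13838, 7623, 14394, 15948 and 12817 without it, and no member call changed. Among the members, depth limits Fasl and Fas in B16-F10 tumor cells most, at 2 and 6 counts over the group.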
